A study of Rattus norvegicus with 6 samples.

Results

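The miR-130 and miR-301 family was followed in the terminal hindgut of fetal rats with and without an anorectal malformation. Its members were taken by name as the 3p arms of miR-130a, miR-130b, miR-301a and miR-301b, 4 of the 758 miRNAs on a one-colour Agilent rat miRNA array, and they were carried by 10 probes in 64 spots per array. Pregnant Sprague Dawley rats had been given ethylenethiourea (ETU, 125 mg/kg) through a stomach tube on gestational day 10, and control dams had been given distilled water in its place. On embryonic day 20 the fetuses were sorted under a microscope, and 1 cm of terminal hindgut was frozen. The ARM group held 3 samples from fetuses with a malformation after ETU, and the control group held 3 samples from healthy fetuses. Exposure and malformation go together in the ARM group, so their parts cannot be told apart. The labels do not say whether a sample was 1 fetus or a pool, or which dam it came from, so every p-value measures only the spread between these 6 samples. The piece of gut holds many cell types, and fewer cells of a type and less RNA per cell cannot be told apart.

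MicroRNAs are short RNAs that guide Argonaute proteins to messenger RNAs, mostly through pairing of the seed, bases 2 to 8 from the 5′ end. The family is defined by a common seed, and in human and mouse cells its members are known to repress the nuclear receptor PPARG and the TGF-beta receptor TGFBR2. In the vessel wall, as worked out in human and rodent pulmonary hypertension, repression of PPARG by the family lowers the human miR-424 (miR-322 in rodents) and miR-503 in endothelial cells and miR-204 in smooth muscle cells. miR-130b and miR-301b come from neighbouring hairpins, while miR-130a and miR-301a each have a locus of their own.

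The sequences are shown because shared and differing bases decide which members a probe or a target site could confuse. RefSeq sequences on the rat build GRCr8 were found by name for 3 of the 4 members, miR-301a-3p being the other. They are written 5′ to 3′, with the seed in capitals.
miR-130a-3p: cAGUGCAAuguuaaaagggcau
miR-130b-3p: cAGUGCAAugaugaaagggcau
miR-301b-3p: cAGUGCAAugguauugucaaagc
All 3 have the seed AGUGCAA, and they were the only 3 of the 693 distinct mature miRNA names in that table with it. With positions counted from the 5′ end, miR-130a-3p and miR-130b-3p are identical at 20 of 22 bases and differ by U11A and A13G (miR-130a-3p first). miR-301b-3p shares its first 10 bases with both, and is identical at 13 of the first 22 bases with miR-130a-3p and at 12 with miR-130b-3p. The array files hold no probe sequences, so cross-hybridisation between miR-130a-3p and miR-130b-3p was not tested.

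The family comes from 3 loci on GRCr8, on chromosomes 3, 10 and 11. The Mir130a hairpin lies at chr3:90229228-90229315 on the minus strand, and the Mir3590 hairpin covers nearly the same bases on the plus strand (chr3:90229235-90229308). The Mir301a hairpin lies at chr10:72422599-72422698, within the spans of the protein-coding genes Ska2, which encodes a kinetochore protein, and Prr11. The hairpins of Mir301b (chr11:97384033-97384110) and Mir130b (chr11:97384380-97384461) lie on the plus strand, 269 bases apart, within the span of the protein-coding gene 2610318N02Rikl. The annotation used here gives gene spans, not exons.

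The arrays differed in overall brightness, which bears on every value below. Taken over the 300 probes that every array detected, the 75th percentile averaged 212 ± 9.0 in ARM and 264 ± 34.9 in control (intensity, SD, n = 3 each). The two-sided exact permutation test gave p = 0.1, which 3 against 3 cannot go below, and levels were scaled to this percentile. Values of single arrays are given in the order of replicates 1, 2 and 3. Between 207 and 246 miRNAs were detected per array, no miRNA spot was saturated, and 230 miRNAs were tested. ARM replicate 3 was the only array on a second slide. Scaling moved the median difference of all tested miRNAs, ARM minus control on the log2 scale, from -0.13 to 0.17.

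All 4 members had higher scaled levels on each ARM array than on any control array. For miR-301a-3p this held for the mean of its probes, while its probe detected on all arrays overlapped between the groups. miR-130b-3p had the largest difference, at 1.68-fold, and the other 3 lay between 1.31-fold and 1.34-fold. The value of miR-301b-3p averages 4 probes, 2 of them detected on no array, and its one probe detected throughout differed by 0.48 on the log2 scale. Of all 230 tested miRNAs 26.1% were separated in that direction and 48.7% in either direction. The family was proposed with differences of these same arrays known, so these differences describe the samples and no support is drawn from them. The number of arrays limits their precision.

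**Figure D1:**
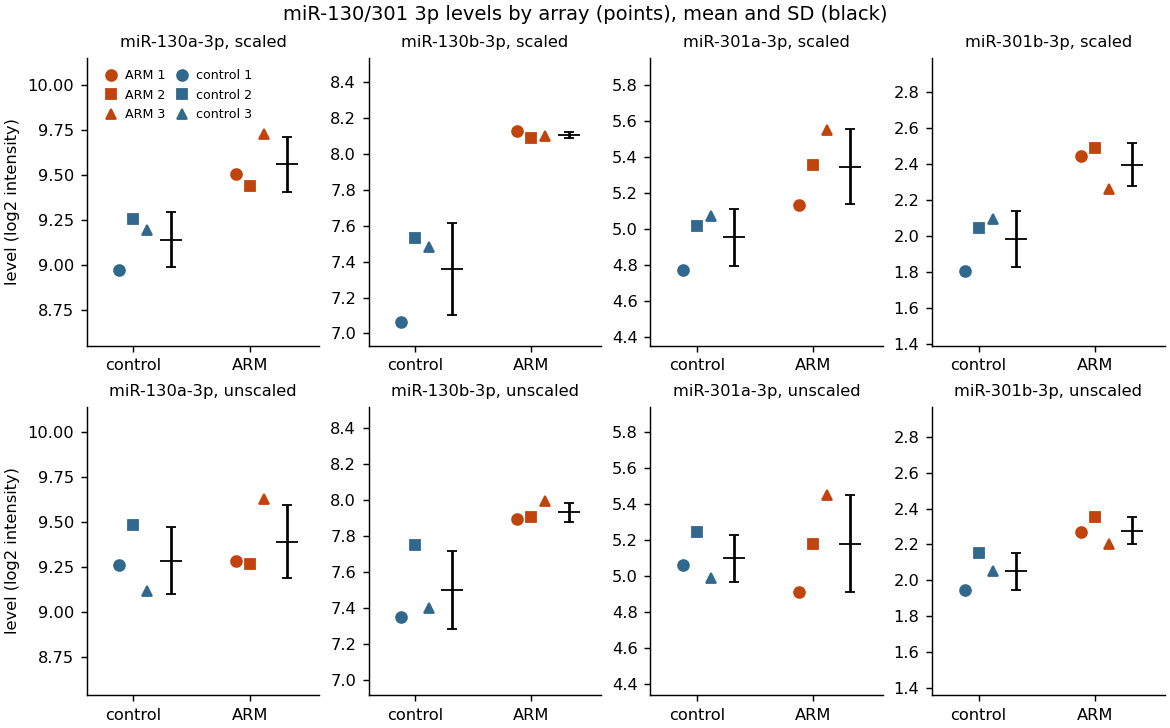
Level of each family member on each array (vertical axis, log2 intensity; points, with array numbers by shape) in control and ARM, with the mean and SD of 3 arrays in black; the upper row is scaled to each array's 75th percentile and the lower row is not scaled. With scaling, ARM lay above control for all 4 members; without it, the groups of miR-130a-3p and miR-301a-3p overlapped.

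miR-130b-3p, the 3p product of the downstream hairpin of the chromosome 11 pair, had nearly the same level on all ARM arrays. Its scaled level (log2 intensity) on the ARM arrays was 8.12, 8.09 and 8.10, against 7.07, 7.53 and 7.48 on the control arrays. The control arrays were thus more spread than the ARM arrays, with control replicate 1 lowest and a gap to the nearest ARM array. ARM averaged 8.10 ± 0.02 and control 7.36 ± 0.25 (SD, n = 3 each), which makes a difference of 0.74 on the log2 scale (SE 0.19, 95% interval 0.30 to 1.19, limma, adjusted p = 0.0396 over all 230 miRNAs). It rose past the threshold of 0.05 as 1 of 4 members, against 2.17% of all tested miRNAs that rose. Both probes were well above background on all 6 arrays, and they differed by 0.77 and 0.72.

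That call was lost under 11 of 20 alternative settings and kept under 9. Leaving out ARM replicate 1, 2 or 3, or control replicate 1 or 2, left differences of 0.74, 0.78, 0.75, 0.61 and 0.83, none past the threshold (limma, adjusted p from 0.0948 to 0.138), and without control replicate 3 the difference was 0.82 (limma, adjusted p = 0.0255). With the total gene signal the difference was 0.60 (limma, adjusted p = 0.0778), and without a detection filter it was 0.74 (limma, adjusted p = 0.182). Without scaling it was 0.43 (SE 0.16, limma, adjusted p = 0.109), with the groups still apart, at 7.90, 7.91 and 7.99 against 7.35, 7.75 and 7.40 (log2 intensity). Within the first slide, which held 2 ARM and 3 control arrays, it was 0.75 (SE 0.24, limma, adjusted p = 0.106). These are the same arrays as those left without ARM replicate 3, so this is not a separate check.

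miR-130a-3p, from the separate chromosome 3 locus and known in human endothelial cells for repressing the homeobox genes GAX (MEOX2) and HOXA5, did not pass the test. Its scaled level on the ARM arrays was 9.51, 9.44 and 9.73, against 8.97, 9.26 and 9.20 on the control arrays (log2 intensity). ARM replicate 3 was highest and control replicate 1 lowest, and the groups did not overlap. The difference was 0.42 (SE 0.18, 95% interval -0.00046 to 0.84, limma, adjusted p = 0.121). Without scaling the levels were 9.28, 9.26 and 9.63 against 9.26, 9.48 and 9.12, so that the groups overlapped, and the difference was 0.11. Its spots carried more outlier flags in ARM, 12 of 48 against 4 of 48 in control, and with flagged spots kept the difference was 0.41.

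miR-301a-3p, from the chromosome 10 locus, differed by an amount close to that of miR-130a-3p. Its scaled level on the ARM arrays was 5.13, 5.36 and 5.55, against 4.77, 5.02 and 5.07 on the control arrays (log2 intensity). The lowest ARM array lay just above the highest control array. The difference was 0.39 (SE 0.19, 95% interval -0.05 to 0.84, limma, adjusted p = 0.153), and without scaling it was 0.08 with overlapping groups. Of its 2 probes, the first was detected on all 6 arrays and its scaled values overlapped between the groups, with the lowest ARM value at 6.38 and the highest control value at 6.39. The second was detected on ARM replicate 3 and control replicate 2 only. Scaled values of this second probe did not overlap, so the separation of miR-301a-3p rests on a probe not detected on most arrays.

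miR-301b-3p, the 3p product of the upstream hairpin of the chromosome 11 pair, lay close to background on most of its probes. Its level over 4 probes on the ARM arrays was 2.44, 2.49 and 2.26, against 1.80, 2.04 and 2.09 on the control arrays (log2 intensity), a difference of 0.42 (SE 0.17, 95% interval 0.01 to 0.83, limma, adjusted p = 0.121). The groups did not overlap. These means take in probes at or near the floor of 1: of the 4 probes, 1 was detected on all 6 arrays, 1 on ARM replicate 3 and control replicate 2, and 2 on no array. The probe detected throughout had scaled levels of 4.69, 4.76 and 4.84 in ARM and 4.01, 4.32 and 4.53 in control, a difference of 0.48. Before scaling its signal overlapped between the groups, at 22.1, 24.0 and 26.6 in ARM and 19.7, 23.3 and 21.7 in control (intensity). The unscaled level over all 4 probes did not overlap between the groups, but the probe whose unscaled signal was separated was one of those not detected on any array.

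**Figure D2:**
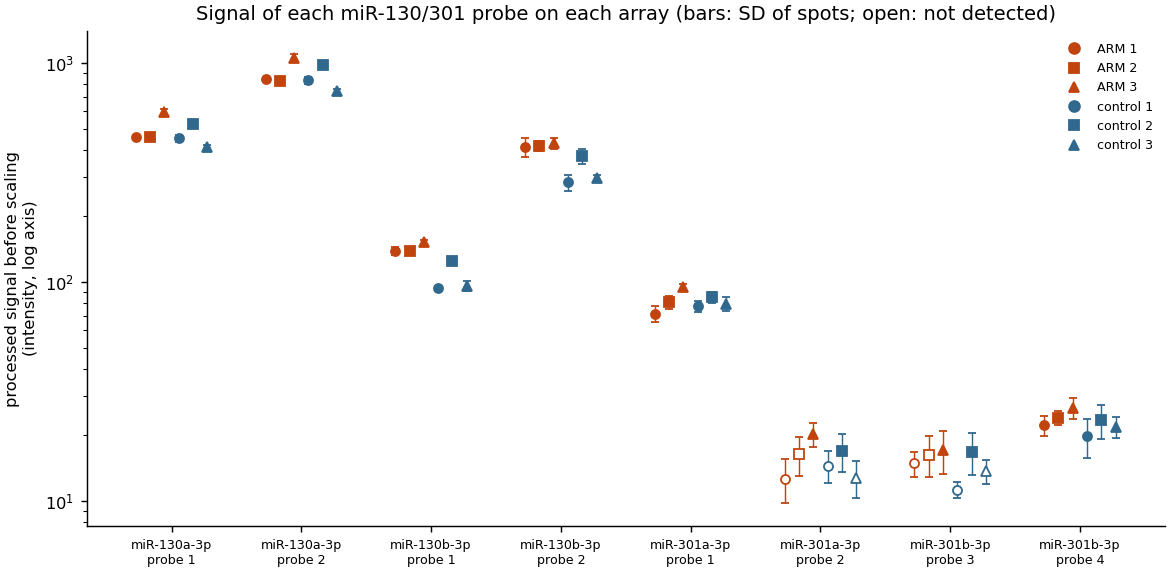
Processed signal before scaling (intensity, log axis) of the 8 family probes detected on at least 1 array, with the SD of the spots of a probe as bars, ARM in orange and control in blue, and open points where the probe was not detected. Both miR-130b-3p probes lay higher on the ARM arrays, and the ARM and control points of all other probes overlapped.

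Repeat spots show the technical spread within an array. Over the family's detected probes the coefficient of variation between spots of 1 probe on 1 array ranged from 0.194% to 22.1%, with a median of 5.10%. The largest values were of miR-301b-3p, whose probes had 4 spots each and signals near background. Before scaling the first probe of miR-130b-3p read 138, 138 and 152 in ARM and 94.0, 124 and 95.7 in control, and the second read 413, 417 and 429 against 285, 374 and 297 (intensity). Both probes of miR-130b-3p thus kept the groups apart without scaling, 1.36-fold and 1.32-fold by group means, as did 18 of 230 miRNAs in that direction (7.83%) at the level of the miRNA.

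**Figure D3:**
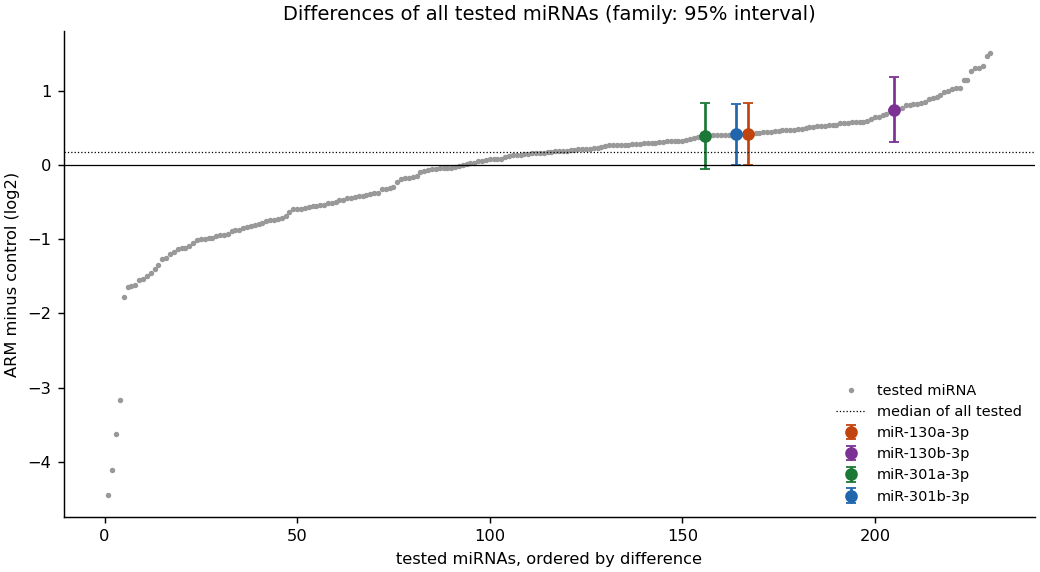
ARM minus control (vertical axis, log2) of the 230 tested miRNAs in order of difference (horizontal axis), with the 4 family members and their 95% intervals in colour and the median of all tested miRNAs, 0.17, as a dotted line. miR-130b-3p lies at 0.74 and the other members between 0.39 and 0.42.

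In the order of all 230 differences, from the highest, miR-130b-3p stood at place 26, miR-130a-3p at 64, miR-301b-3p at 67 and miR-301a-3p at 75. Relative to the median difference of all tested miRNAs, the members lay 0.57, 0.24, 0.24 and 0.22 higher in that order. Of all tested miRNAs, 59.6% had a positive difference with scaling and 37.4% without it, and all 4 members were positive in both. Their median was 0.42 with scaling and 0.17 without.

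Differences between members within an array do not depend on its overall brightness, except for miR-301b-3p, whose dim probes meet the floor. miR-130a-3p minus miR-130b-3p was 1.38, 1.36 and 1.63 on the ARM arrays, against 1.91, 1.73 and 1.72 on the control arrays (log2). Each ARM value was below each control value, with an average difference of -0.33. miR-130b-3p minus miR-301b-3p, its neighbour on chromosome 11, was 5.68, 5.599 and 5.84 on the ARM arrays, against 5.26, 5.49 and 5.39 on the control arrays, higher in ARM by 0.33 on average and by 0.21 without scaling. With only the brightest probe of each miRNA this difference was 0.24, and with only probes detected on at least 3 arrays it was 0.27. miR-130b-3p minus miR-301a-3p was higher in ARM by 0.35, with the nearest ARM and control arrays at 2.55 and 2.51. For each of these 3 pairs the exact permutation test (two-sided) gave p = 0.1, the lowest that this design allows, and an adjusted p of 0.2 over the 6 pairs compared, so none passed. As the groups did not overlap in these 3 pairs, leaving out 1 array could not turn a sign.

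The 3 pairs without miR-130b-3p overlapped between the groups. miR-130a-3p minus miR-301a-3p differed by 0.03 on average, miR-130a-3p minus miR-301b-3p by 0.003, and miR-301a-3p minus miR-301b-3p by -0.02. Their SDs within ARM were 0.15, 0.27 and 0.31, larger than these differences.

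**Figure D4:**
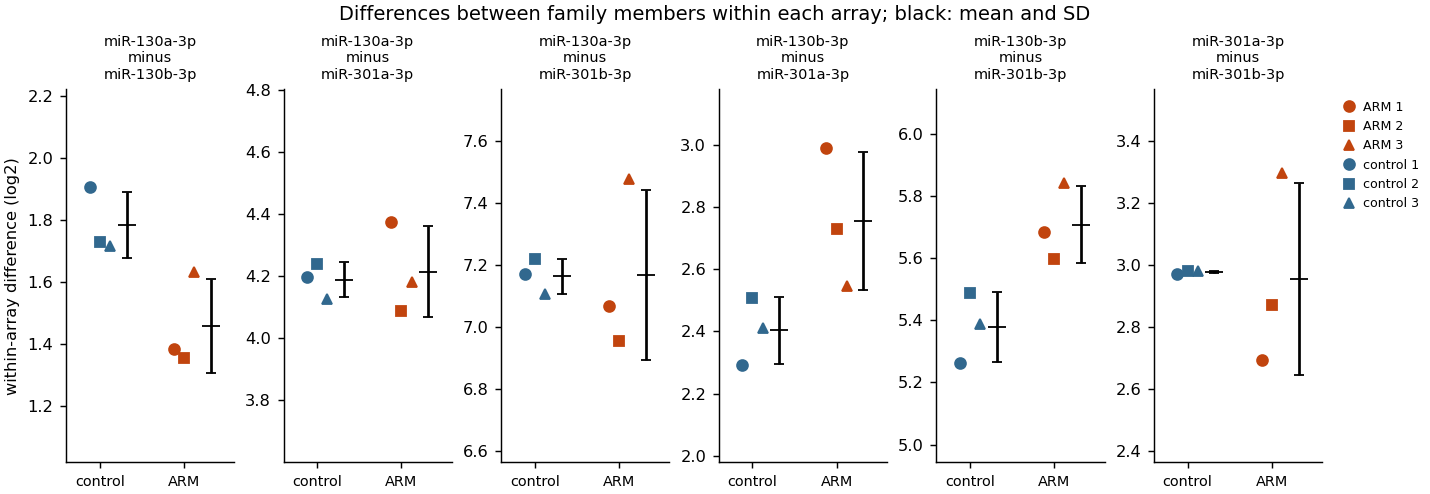
Difference between 2 family members within each array (vertical axis, log2) for all 6 pairs, in control and ARM, with the mean and SD of 3 arrays in black. The groups separate in the 3 pairs that hold miR-130b-3p and overlap in the other 3.

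The 5p arms of the same precursors were at background. None of the 10 probes of miR-130a-5p, miR-130b-5p, miR-301a-5p and miR-301b-5p was detected on any array, and their signals ran from -2.03 to 9.40, against 11.8 to 16.1 for the dimmest detected probe of each array (intensity). No fold is given for them. The antisense miRNA of the chromosome 3 locus was also not detected, although all 21 bases of miR-3590-5p are complementary to miR-130a-3p. It is shown with the complement of the miR-130a-3p seed in capitals, beside the miR-130a-3p sequence given above.
miR-3590-5p: ugcccuuuuaacaUUGCACUg
Its 2 probes read between -3.14 and 0.66 on the 6 arrays (intensity).

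Other miRNAs with a seed offset by 1 base from that of the family were compared next. The miR-148 seed begins 1 base earlier in the family's run of letters. The miR-19 seed begins 1 base later, and only its first 6 letters lie in that run. Each seed is shown in capitals.
miR-19b-3p: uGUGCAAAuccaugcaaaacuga
miR-148b-3p: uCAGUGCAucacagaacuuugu
Of the 5 members of this list 4 were tested, and none passed, against 13.5% of all tested miRNAs called in either direction. The groups did not overlap for 3 of the 4, against 48.7% of all tested miRNAs. miR-19a-3p, of the miR-17-92 cluster, differed by 0.52 (SE 0.21, limma, adjusted p = 0.115) and miR-148b-3p by 0.34 (SE 0.19, limma, adjusted p = 0.210), both without overlap between the groups. miR-152-3p differed in the other direction, by -0.54 (SE 0.21, limma, adjusted p = 0.104), also without overlap. miR-19b-3p differed by 0.43, and miR-148a-3p was detected on no array. The list's median difference was 0.38, against 0.17 for all tested miRNAs.

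Of the miRNAs linked to PPARG, 2 fell. miR-322-5p, the rodent counterpart of human miR-424, fell by 1.09 on the log2 scale (SE 0.20, limma, adjusted p = 0.0330), and miR-503-5p, from the same cluster, fell by 1.54 (SE 0.30, limma, adjusted p = 0.0338). These are 2 of 4 tested members, against 11.3% of all tested miRNAs that fell, and both falls were known when the list was made. As both come from 1 cluster, they are not 2 separate counts. A link of these falls to PPARG or to the family was not tested. miR-27a-3p and miR-27b-3p, which repress PPARG in mouse and human fat cells, differed by -0.15 and 0.07 with overlapping groups. miR-204-5p was not tested, being detected on fewer than 3 arrays. The list's median was -0.62.

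Other miRNAs known to repress TGFBR2 were compared as a list. Of its 5 members, none passed the test and all 5 had positive differences without overlap. Of all tested miRNAs 2.17% were called higher, 26.1% were higher without overlap and 59.6% had a positive difference. Whether the 5 members vary separately was not tested, nor was a link to TGFBR2. The list's differences had a median of 0.56, and of 0.25 without scaling. Among them miR-17-5p differed by 0.65 (SE 0.18, limma, adjusted p = 0.0585) and miR-20a-5p by 0.56 (SE 0.19, limma, adjusted p = 0.0706).

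The miRNAs whose levels ran most like those of the 2 miR-130 members were then listed by Pearson's r over the 6 arrays, as a description, since all arrays share 1 scaling and 2 groups. For miR-130b-3p they were miR-221-3p (r = 0.997), miR-92a-3p (0.995), miR-106b-5p (0.993), miR-20b-5p (0.988) and miR-326-3p (0.987), and 36 of 226 miRNAs outside the family had r over 0.9. miR-221-3p and miR-326-3p were not detected on any control array. After centring each group on its mean, the first 5 were miR-98-5p, miR-92a-3p, miR-490-5p, miR-221-3p and miR-183-5p, at 0.971 to 0.982. For miR-130a-3p they were miR-324-3p (0.984), miR-17-5p (0.981), miR-18a-5p (0.979), miR-148b-3p (0.965) and miR-10b-5p (0.962), and 20 of 226 had r over 0.9. Centred, the first 5 were miR-148b-3p, miR-30e-5p, miR-17-5p, miR-324-3p and miR-3573-3p, at 0.930 to 0.972. The median r with miRNAs outside the family was 0.41 for miR-130b-3p and 0.43 for miR-130a-3p, and, centred, 0.14 and 0.24. Within the family, r between members ran from 0.73 (miR-301a-3p and miR-301b-3p) to 0.95 (miR-130b-3p and miR-301b-3p), and, centred, from 0.08 (miR-130a-3p and miR-301b-3p) to 0.80 (miR-130a-3p and miR-301a-3p).

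Markers of several cell types moved with the groups beside the family. Among all tested miRNAs, 59.6% had a positive difference, 26.1% were higher without overlap, 2.17% were called higher and 11.3% were called lower. All 8 intestinal epithelial markers had positive differences, 5 without overlap and none past the test, and their summed scaled signal was 1869 to 3011 in ARM and 593 to 1686 in control (intensity). All 4 striated muscle markers had negative differences and 3 were called lower, with a sum of 125 to 300 in ARM and 939 to 4087 in control. Both erythroid markers and the liver marker miR-122-5p fell, with sums of 75.02 to 116 against 225 to 403 and of 2.63 to 25.2 against 114 to 229. No marker of these lists was undetected on all arrays. The smooth muscle sum was 1004 to 1065 in ARM and 604 to 1051 in control, and that of mesenchyme 2687 to 3248 and 3256 to 4262, with no call in either. The sum was 63.7 to 78.2 and 47.4 to 61.2 for stratified epithelium, 242 to 274 and 240 to 304 for endothelium, 49.7 to 78.9 and 52.6 to 59.9 for leukocytes, and 33.0 to 42.0 and 43.3 to 78.1 for neurons, again ARM first and with no call. miR-126a-5p (endothelium), miR-142-5p (leukocytes) and miR-124-3p (neurons) were detected on no array. Of the neuron markers miR-9a-5p was not tested either. The only one tested, miR-128-3p, differed by -1.39 on the log2 scale (SE 0.40, limma, adjusted p = 0.0585). The family's own sum was 1107 to 1272 in ARM and 725 to 907 in control. The part of cell makeup in the family's differences was not tested.

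**Figure D5:**
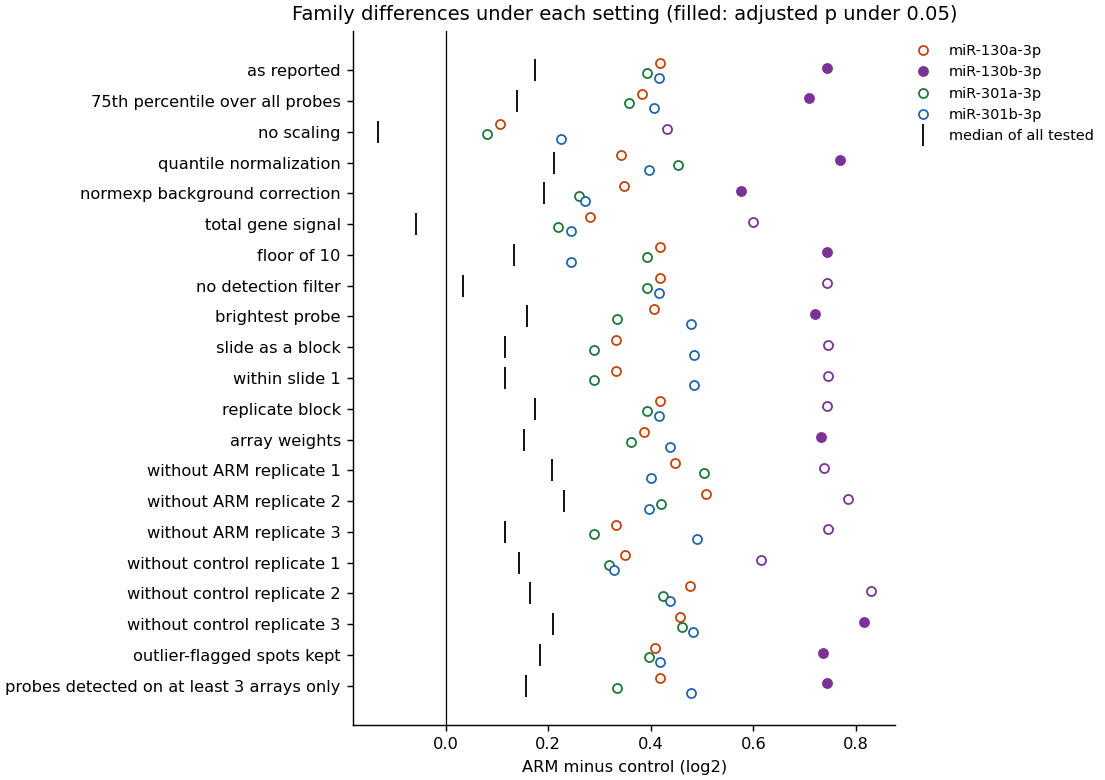
ARM minus control (horizontal axis, log2) of the 4 family members as reported and under 20 other settings (vertical axis), filled where the adjusted p was under 0.05, with the median of all tested miRNAs as a black bar. All 4 members were positive in every setting shown, miR-130b-3p ran from 0.43 to 0.83, and no other member was filled in any of them. Settings that leave out 1 array could hardly turn a sign, because the scaled groups did not overlap.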

How the data were processed

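MicroRNA levels were measured on 6 one-colour (Cy3) Agilent arrays, 3 ARM and 3 control, grouped by sample title. The deposited intensity values come from Feature Extraction 10.7.1.1 (Agilent), per the file headers, and are background-subtracted, with no scaling between arrays found. The value table of the series equals the processed signal in every spot (largest difference 0), so its scale is linear and it is neither centred nor scaled. Its column medians were 2.10, 2.61 and 2.84 (ARM 1 to 3) and 2.44, 3.16 and 1.84 (control 1 to 3).

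Control and outlier-flagged spots were left out and spots of a probe averaged. Detection of a probe required a share of 0.5 or more of its spots well above background. Signals were divided by the array's 75th percentile (over 300 probes that every array detected) and brought back to a common level, floored at 1 and converted to log2 (3.00% of tested probe values lay below the floor). A miRNA's level is the mean over its probes, including those not detected. A miRNA was tested when any of its probes was detected on at least 3 arrays, not necessarily the same probe on each. The test was limma 3.58.1 (R 4.3.3; lmFit, eBayes) with Benjamini-Hochberg adjustment over all 230 miRNAs, and was tested on simulated data. Members, lists and markers were chosen with earlier results of these data known. Named miRNAs are all family members, both arms, all list members or their counts (1 list is not reported here), and the 5 most correlated with miR-130b-3p and with miR-130a-3p; miR-3590-5p was added after its position was seen. Alternatives were other scalings, background correction, signal, floor, filter, probe summary, slide, replicate block, array weights and each array left out; keeping flagged spots and keeping only probes detected on at least 3 arrays were chosen after seeing the data.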

Additional observations from a re-analysis of the deposited data

How the results depend on the processing

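All 4 members kept positive differences under all 20 alternatives. These were 0.11 to 0.51 for miR-130a-3p, 0.43 to 0.83 for miR-130b-3p, 0.08 to 0.50 for miR-301a-3p and 0.23 to 0.49 for miR-301b-3p. Only miR-130b-3p was called in any. The filter and the replicate block cannot alter the differences. miR-130b-3p lost its call without scaling (0.43), with the total gene signal (0.60), without a detection filter (0.74, which tests 758 miRNAs), with slide as a block or within slide 1 (0.75, the same fit), with the replicate block (0.74, limma, adjusted p = 0.132), and when 1 array was left out (0.61 to 0.83; it kept the call only without control replicate 3). Its adjusted p ranged from 0.0192 to 0.182; the cause of these losses was not tested. The 3 within-array differences that hold miR-130b-3p kept their sign in 15 of 15 alternatives. Leaving out 1 array could hardly turn these signs or those of the members. miR-130a-3p minus miR-301a-3p turned negative with quantile normalization (-0.11) and ran from -0.055 to 0.089 when 1 array was left out (negative without ARM replicate 1, at -0.055, and without control replicate 3, at -0.0049). miR-130a-3p minus miR-301b-3p turned negative with the percentile over all probes (-0.023), no scaling (-0.12), quantile normalization (-0.056) and the brightest probe (-0.073). It also did with flagged spots kept (-0.0086), probes detected on at least 3 arrays (-0.061), and without ARM or control replicate 3 (-0.16, -0.03). miR-301a-3p minus miR-301b-3p turned positive with quantile normalization (0.056), a floor of 10 (0.15) and without ARM replicate 1 (0.10) or 2 (0.02). With 1 array left out these 3 ran from -0.055 to 0.089, -0.16 to 0.11 and -0.20 to 0.10.

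The 31 calls among all tested miRNAs (5 higher, 26 lower) became 87 with array weights and 16 with normexp background correction. No call was left (0) when the detection filter was dropped, with slide as a block, within slide 1 or with the replicate block; an unadjusted limma p below 0.05 was then seen for 134, 78, 78 and 73 miRNAs. Leaving out 1 array gave 0 to 93 calls: 93 when control replicate 3 was left out, 10 for ARM replicate 1, and 0 for ARM replicate 2 or 3 or control replicate 1 or 2 (limma, 61, 78, 64 and 73 with an unadjusted p below 0.05). The split was 1 higher and 30 lower without scaling and 10 higher and 28 lower with quantile normalization. Same-numbered ARM and control arrays did not deviate together (correlations of deviations over 230 miRNAs of -0.07, -0.28 and -0.21, and 0 of 6 arrays correlated best with their own number). The replicate numbers thus gave no sign of pairing. With 3 arrays per group, whose deviations depend on each other, this cannot settle whether samples were matched. Dim probes limit miR-301a-3p and miR-301b-3p: 2 of the family's 10 probes were detected on no array and 2 on some arrays.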
